A study of Mus musculus with 80 samples.

Results

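The genes described here are 41 genes of the lysosome, of autophagy and of mitophagy, taken as a fixed list of symbols from the first column of the count tables. All 41 were among the 32764 gene symbols counted. RNA of 4 tissues, namely brown fat (BAT), inguinal white fat (iWAT), liver and muscle, was sequenced in 4 genotypes, WT, UCP1 KO, FGF21 KO and their double knockout (dKO), with 5 libraries per genotype and tissue and 80 in all. UCP1 KO mice lack uncoupling protein 1, the heat-producing carrier of brown fat mitochondria, FGF21 KO mice lack the hormone fibroblast growth factor 21, and dKO mice lack both. The labels spell the dKO genotype with FGF12, whereas the series title and the study name FGF21. All groups were homozygous male mice raised at 30 °C that were moved at 10 to 12 weeks of age to room temperature and a high-fat diet for 3 weeks, so WT mice had the same diet and housing. The deletions affect every cell of the animal. No label links libraries of the same mouse, and a p-value measures the spread between these libraries only.

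Lysosomes are acidic organelles that degrade proteins, glycans and lipids. The vacuolar proton pump (V-ATPase) acidifies them, cathepsins cut proteins, and glycosidases and lipases break down sugars and lipids. Autophagy encloses cell contents in a double membrane that fuses with the lysosome, and mitophagy is the form that removes mitochondria, which is known to take part in the remodelling of thermogenic fat. The transcription factors TFEB and TFE3 are known activators of many lysosomal and autophagy genes.

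The libraries held between 28691379 and 50380704 counted reads (median 38022860.5). Alb and Acta1 set liver and muscle apart, since Alb in liver was at 45870 CPM or more against at most 230.1 CPM elsewhere, and Acta1 in muscle at 14470 CPM or more against at most 4186 CPM elsewhere. CPM are counts scaled to a library of 1000000 counted reads with trimmed-mean (TMM) factors. Cidea, a brown fat gene, ranged from 1326 to 2958 CPM in BAT, against at most 1185 CPM elsewhere, and Adipoq, an adipocyte hormone, from 728 to 3136 CPM in iWAT, which overlapped with BAT (209 to 899 CPM). Fgf21 had at most 3 counts in every FGF21 KO and dKO library. WT libraries had 7 to 10 counts in BAT, 2 to 11 in iWAT, 51 to 107 in liver and 0 to 3 in muscle, where the genotypes overlapped. Ucp1 was still counted in BAT labelled UCP1 KO, at 529.8 to 1238 CPM against 3205 to 7555 CPM in WT. In iWAT it was higher in libraries labelled UCP1 KO, at 102 to 735 CPM, than in WT, at 2.64 to 16.7 CPM. Counts per gene do not tell which part of Ucp1 was read. Fgf21, which was higher in BAT of UCP1 KO (9.47 to 35.2 CPM) than of WT (0.228 to 0.290 CPM), was also higher in the iWAT libraries labelled UCP1 KO, at 0.594 to 13.96 CPM against 0.0485 to 0.318 CPM in WT. A lymph node score over 8 genes set 9 of the 20 iWAT libraries apart, and a skeletal muscle score over 10 genes exceeded 6 in 5 of the 20 BAT libraries and in 4 of the 20 iWAT libraries. All 41 genes passed the filter on low counts in all 4 tissues.

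The sequence that TFEB and TFE3 are known to bind has the core CACGTG, and promoters are shown here to let that core be seen in genes that the BAT results turn on. Of the 41 genes, 32 were matched by symbol in the RefSeq promoter table of GRCm38.p6, which holds 250 bases before to 50 bases after each start that RefSeq gives. In 27 of the 32 genes a window also held the start that GENCODE gives, and in the other 5 (Atg7, Atp6v1a, Ctsl, Scarb2 and Wipi1) it lay inside the gene as GENCODE places it. CACGTG, a palindrome and so the same on both strands, was present for 12 of the 32 genes (37.5%), against 8.09% of 27025 genes with a promoter. The longer TCACGTGA, also a palindrome and holding CACGTG within it, was present in 6 of the 32 (18.8%), against 1.12% of all genes. Lamp1, which codes for an abundant glycoprotein of the lysosomal membrane, had 4 copies of CACGTG, at -61, -45, -28 and -15 from the RefSeq start, and Ctsa, Ctsd and Gla had 2 copies each. Mcoln1, the lysosomal calcium channel, had 2 copies, at -71 and -45, and Ctsl and Bnip3 had 1 each, at -236 and -108. Atg5, not shown, had 1 at -14. The RefSeq start of Ctsl is 370 bases downstream of the GENCODE start. Atg7 also had 1 copy, but its window starts from a RefSeq start 27999 bases inside the gene and is not shown. Sqstm1, which codes for the autophagy receptor p62, had none in this window, and neither had Lipa, Grn or Pink1. The windows lie at chr8:13158911-13159210 on the plus strand (Lamp1), chr8:3500269-3500568 on the plus strand (Mcoln1), chr13:64370471-64370770 on the minus strand (Ctsl), chr7:138909457-138909756 on the minus strand (Bnip3) and chr11:50210771-50211070 on the minus strand (Sqstm1). Each is written 5′ to 3′ in the direction of the gene, with CACGTG in capitals.
Lamp1: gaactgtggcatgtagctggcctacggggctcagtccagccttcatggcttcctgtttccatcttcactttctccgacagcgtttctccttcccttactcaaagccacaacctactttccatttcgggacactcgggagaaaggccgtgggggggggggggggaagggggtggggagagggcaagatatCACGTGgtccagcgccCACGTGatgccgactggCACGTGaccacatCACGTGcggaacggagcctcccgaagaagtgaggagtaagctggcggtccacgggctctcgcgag
Mcoln1: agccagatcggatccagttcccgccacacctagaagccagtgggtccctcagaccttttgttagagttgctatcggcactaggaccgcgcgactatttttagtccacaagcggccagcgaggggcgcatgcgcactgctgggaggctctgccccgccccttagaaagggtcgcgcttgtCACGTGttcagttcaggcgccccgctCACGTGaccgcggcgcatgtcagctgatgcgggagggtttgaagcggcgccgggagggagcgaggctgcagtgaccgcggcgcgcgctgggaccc
Ctsl: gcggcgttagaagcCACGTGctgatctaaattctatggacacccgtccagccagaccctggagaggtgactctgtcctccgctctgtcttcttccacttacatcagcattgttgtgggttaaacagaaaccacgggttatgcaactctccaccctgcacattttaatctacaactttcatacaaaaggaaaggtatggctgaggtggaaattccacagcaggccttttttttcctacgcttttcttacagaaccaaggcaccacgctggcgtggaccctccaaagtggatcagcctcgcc
Bnip3: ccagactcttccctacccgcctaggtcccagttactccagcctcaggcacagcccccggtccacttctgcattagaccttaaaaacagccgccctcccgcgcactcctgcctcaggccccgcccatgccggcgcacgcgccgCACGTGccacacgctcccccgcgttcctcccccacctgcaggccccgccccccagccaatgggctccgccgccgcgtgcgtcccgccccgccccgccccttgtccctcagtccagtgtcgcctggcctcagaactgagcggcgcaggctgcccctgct
Sqstm1: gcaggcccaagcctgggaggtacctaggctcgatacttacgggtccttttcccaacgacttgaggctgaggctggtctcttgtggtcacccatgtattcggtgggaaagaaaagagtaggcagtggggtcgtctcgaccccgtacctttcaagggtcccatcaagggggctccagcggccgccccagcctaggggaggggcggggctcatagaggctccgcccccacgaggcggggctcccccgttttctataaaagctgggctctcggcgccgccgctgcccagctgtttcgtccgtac
These matches are a description of letters in a window and not of binding. Of the 13 genes that changed in BAT with the loss of UCP1 (described below with their test), 10 had a promoter in the table and 6 of the 10 held CACGTG, and among the other 28 genes 22 had a promoter and 6 held it. Counting only genes whose window held the GENCODE start, CACGTG was present in that window for 4 of 8 called genes and for 4 of 19 others.

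In WT mice, the list was highest in iWAT for most genes when levels were compared per length, as CPM per kilobase of the principal transcript. iWAT held the highest mean of 22 of the 41 genes, liver of 10, muscle of 5 and BAT of 4. The 5 libraries of the highest tissue lay above all 5 of the next tissue for 14 of the 22 genes highest in iWAT, for 4 of the 10 highest in liver, for 4 of the 5 highest in muscle and for 1 of the 4 highest in BAT. These levels are a description. TMM factors were computed within each tissue and not between tissues. The same counts over all genes were not made, so this order may not be particular to the list. The WT iWAT libraries include 2 with a high lymph node score. Without those 2, iWAT held the highest mean of 23 genes and BAT of 3, since Map1lc3b moved from BAT to iWAT.

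The most abundant of these transcripts in WT BAT were the aspartic protease cathepsin D (Ctsd, 733 ± 36.3 CPM per kb, mean ± SD, n = 5), the sphingolipid activator precursor prosaposin (Psap, 646 ± 24.3), the cysteine protease cathepsin B (Ctsb, 298 ± 16.5) and Lamp1 (235 ± 13.6). Atp6v0d2, an alternative d subunit of the V-ATPase, was the least abundant, at 0.248 ± 0.176 CPM per kb in BAT, and it was also low in iWAT at 0.918 ± 0.502, in liver at 0.362 ± 0.129 and in muscle at 0.0435 ± 0.0269. The ubiquitous d subunit Atp6v0d1 stood at 39.5 ± 3.32 CPM per kb in BAT. In liver, Ctsl led at 335 ± 26.1 CPM per kb, followed by Lamp1 at 277 ± 8.87, and liver also held the most Lamp2 (213 ± 10.5), Ctsh (144 ± 8.24) and Gabarapl1 (235 ± 18.1) without overlap with the next tissue. In muscle, Ctsd (387 ± 27.6) and Psap (322 ± 7.64) were again high, and Sqstm1 (249 ± 23.8) and the mitophagy kinase Pink1 (226 ± 24.5) exceeded the next tissue without overlap.

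The regulators did not share an order across tissues. Tfeb was highest in muscle at 18.5 ± 2.20 CPM per kb, followed by iWAT (6.59 ± 2.41), BAT (5.34 ± 0.417) and liver (2.24 ± 0.326), and the iWAT and BAT libraries overlapped. Tfe3 was highest in iWAT at 15.7 ± 1.10 CPM per kb, followed by BAT (13.2 ± 1.00), liver (6.62 ± 0.184) and muscle (3.28 ± 0.244), and the iWAT and BAT libraries again overlapped. The widest range between tissues was that of Ctsk, a collagen-degrading cathepsin, with 35.9 ± 9.69 CPM per kb in iWAT against 0.383 ± 0.0738 in liver, and the narrowest that of Scarb2, a lysosomal membrane receptor, with 47.2 ± 6.75 in liver against 34.9 ± 1.59 in muscle. Map1lc3a, an LC3 protein of the autophagosome membrane, was highest in BAT at 173 ± 14.1 CPM per kb, with muscle at 117 ± 10.3.

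**Figure D1:**
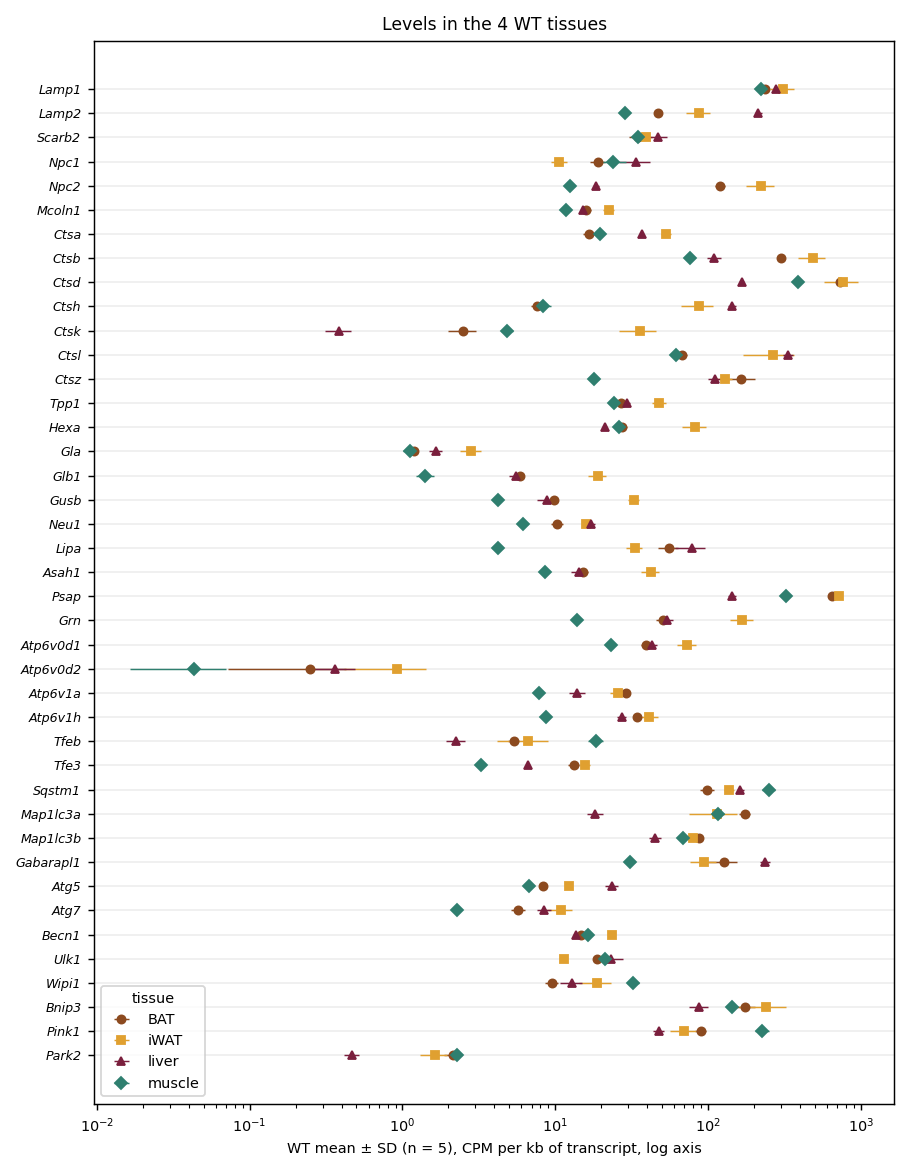
Mean level of each of the 41 genes in WT libraries of BAT, iWAT, liver and muscle, in CPM per kb of transcript on a log axis, with 1 point per tissue (mean of 5 libraries) and genes grouped by role. Ctsd and Psap are among the highest in BAT and iWAT, Atp6v0d2 is the lowest in BAT, and Tfeb is highest in muscle.

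In BAT, a set of lysosomal and autophagy genes was higher in UCP1 KO than in WT mice, and a pair of mitophagy genes was lower. The comparison asks what the loss of UCP1 changes when FGF21 is present. With edgeR's quasi-likelihood test and a Benjamini-Hochberg adjusted p under 0.01 over all genes tested, 11 genes rose (Atp6v0d2, Sqstm1, Ctsh, Grn, Lipa, Ctsl, Atp6v1h, Atg7, Mcoln1, Lamp1 and Atg5) and 2 fell (Bnip3 and Pink1). From here on, called means called by edgeR unless DESeq2 is named. These 13 were 31.7% of the 41, against 25.2% of all 15729 genes tested, of which 13.8% rose and 11.4% fell. Without WT 2, 4 of the 41 were called (Atp6v0d2, Atp6v1h, Lipa and Sqstm1), against 19.9% of all genes, where a number only names a library of its genotype. The share called was thus close to that of the tissue as a whole, in which a large part of all genes changed, while the calls were mostly in 1 direction. The log2 fold change was positive in 30 of the 41 genes, against 50.9% of all genes, and negative in 11. Its median was 0.22 against 0.01 over all genes. For FGF21 KO against WT in BAT, where 0 of all genes were called, it was also positive in 30 and negative in 11, with a median of 0.05. The split of signs was thus not particular to the loss of UCP1. DESeq2 called 17 of the 41, against 30.3% of all genes. All 5 UCP1 KO libraries lay above all 5 WT libraries in 10 of the 41 genes, against 11.8% of all genes, and below them in 1, against 11.7%.

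By role, 2 of 6 genes of the lysosomal membrane rose, 2 of 8 cathepsins and proteases, 2 of 9 genes of glycan and lipid breakdown, 2 of 4 V-ATPase subunits, 0 of 2 regulators and 3 of 9 autophagy genes, and 2 of 3 mitophagy genes fell. edgeR called no other gene of these groups, and DESeq2 called the same 13 and in addition Npc1, Ctsa, Ctsk and Gusb. Across all 4 genotypes in BAT, 12 genes were called (29.3%, against 29.7% of all genes, and 17 with DESeq2, against 38.0%), which were 11 of the 13 without Mcoln1 and Atg5, and in addition Ctsa.

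**Figure D2:**
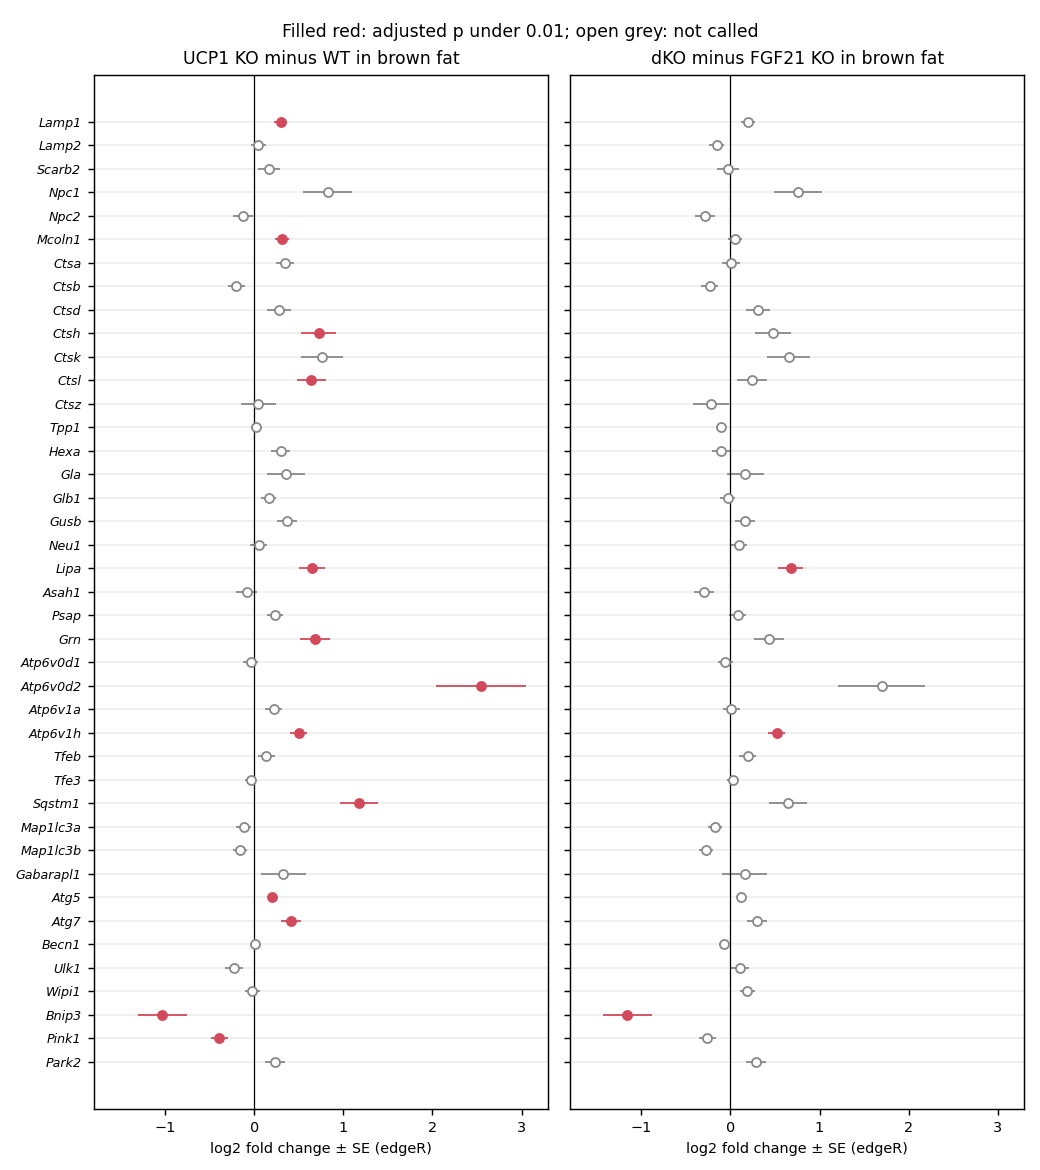
Log2 fold changes in BAT, UCP1 KO relative to WT and dKO relative to FGF21 KO, for each of the 41 genes, with bars of 1 SE, filled points where edgeR's adjusted p was under 0.01, and genes grouped by role. Filled points are 13 in the first comparison and 3 in the second, and Atp6v0d2 lies furthest to the right at 2.55.

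**Figure D3:**
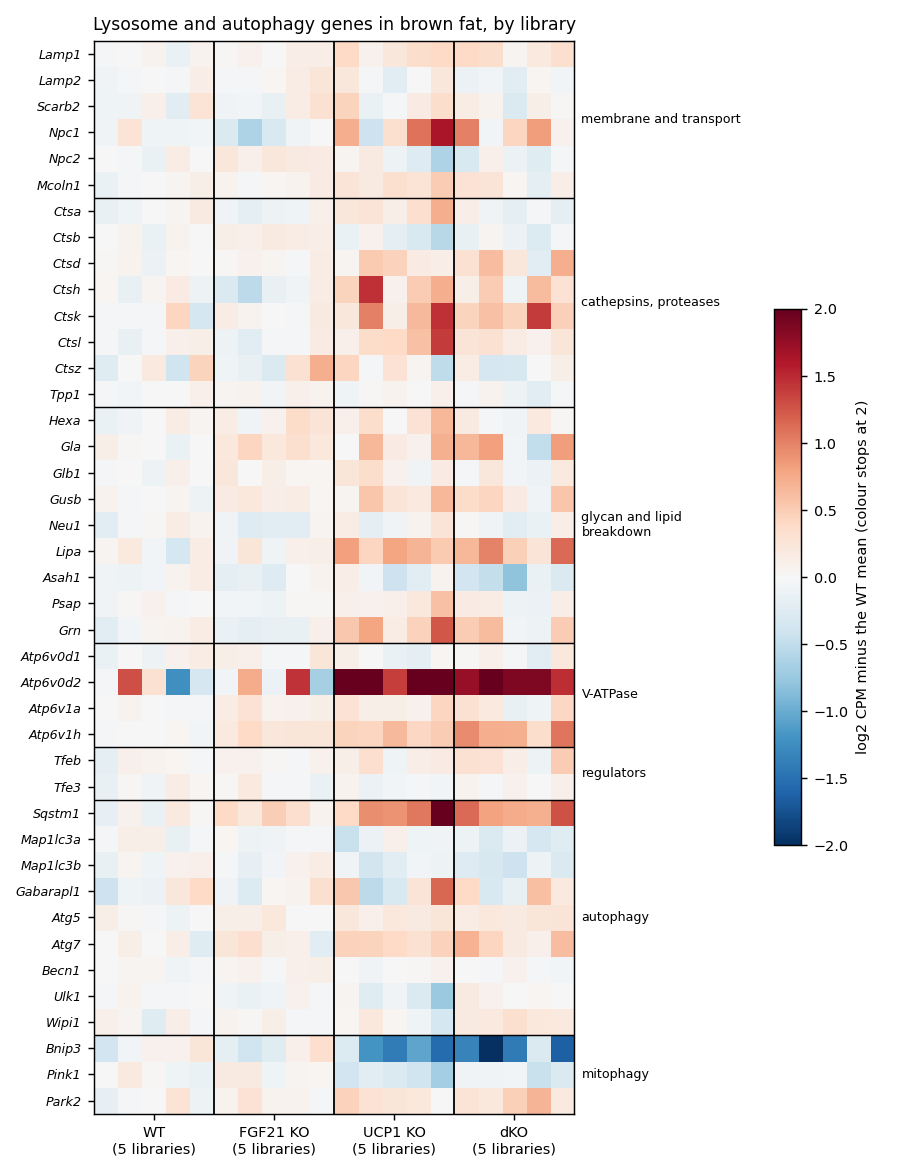
Log2 CPM of the 41 genes in the 20 BAT libraries as the difference from each gene's mean over the 5 WT libraries, with libraries in columns by genotype and genes in rows by role. Most of the visible change lies in the UCP1 KO and dKO columns, in Atp6v0d2, Sqstm1 and Bnip3 above all.

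The V-ATPase genes held the steepest rise. WT libraries had 0.195, 0.405, 0.517, 0.664 and 1.37 CPM of Atp6v0d2 (chr4:19876841-19922605, minus strand, GRCm38), and UCP1 KO libraries 1.47, 2.41, 3.75, 4.01 and 6.72 CPM. FGF21 KO libraries had 0.313, 0.484, 0.505, 0.918 and 1.52 CPM and dKO libraries 1.57, 1.89, 2.06, 2.08 and 4.47 CPM. No UCP1 KO value fell within the WT range, though the level stayed low, with 6 to 39 counts in WT and 72 to 269 in UCP1 KO (log2 fold change 2.55 ± 0.50 (SE), adjusted p = 0.000677, edgeR). The exact two-sided permutation p of 0.00794 is the smallest that 5 libraries against 5 allow.

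Atp6v1h, the H subunit that joins the catalytic part of the pump (chr1:5070018-5162529, plus strand), was much more abundant. WT libraries held 67.6, 68.8, 70.5, 70.6 and 72.2 CPM, and UCP1 KO libraries 93.0, 94.7, 95.6, 100.0 and 109.9 CPM. FGF21 KO libraries held 79.7, 81.9, 82.9, 82.9 and 92.5 CPM and dKO libraries 89.5, 114, 116, 134 and 148 CPM. The WT libraries were the lowest of all, below every UCP1 KO library and also below every FGF21 KO library, and the dKO libraries held the highest values (log2 fold change 0.50 ± 0.095 (SE), adjusted p = 0.000508, edgeR). For FGF21 KO against WT the log2 fold change was 0.26 with an adjusted p of 0.413. Neither Atp6v0d1, the usual d subunit (log2 fold change -0.039, adjusted p = 0.74), nor Atp6v1a, the catalytic subunit, was called, although all 5 UCP1 KO values of Atp6v1a exceeded the 5 WT values (0.22, adjusted p = 0.0744). The calls of Atp6v0d2 and Atp6v1h held when any 1 of the 20 BAT libraries was left out.

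Of the genes of the lysosomal membrane and of transport across it, Lamp1 (chr8:13159161-13175338, plus strand) and Mcoln1 (chr8:3500457-3515232, plus strand) rose by small amounts. Lamp1 was at 475, 516, 528, 548 and 549 CPM in WT and at 556, 610.5, 667, 687 and 688 CPM in UCP1 KO. It was at 521, 528, 552, 571 and 573 CPM in FGF21 KO and at 543, 601, 653, 666 and 689 CPM in dKO. The UCP1 KO values of Lamp1 all exceeded those of WT (log2 fold change 0.29 ± 0.076 (SE), adjusted p = 0.00486, edgeR), and the dKO values overlapped with those of WT and of UCP1 KO. Mcoln1 was at 29.9, 32.1, 32.6, 34.1 and 35.8 CPM in WT and at 37.3, 39.1, 39.6, 40.9 and 46.8 CPM in UCP1 KO. In FGF21 KO it was at 32.3, 33.8, 34.5, 34.6 and 36.7 CPM and in dKO at 29.1, 33.6, 36.0, 39.2 and 40.2 CPM. The UCP1 KO libraries again lay above all WT libraries (log2 fold change 0.31 ± 0.082 (SE), adjusted p = 0.00594, edgeR). The call of Lamp1 was lost without WT 1, WT 2, WT 4, UCP1 KO 4 or UCP1 KO 5 (adjusted p from 0.0108 to 0.0165), and that of Mcoln1 without WT 1, WT 2, WT 3, WT 4, UCP1 KO 3 or UCP1 KO 5 (adjusted p from 0.0108 to 0.0212). Of the cholesterol exporters, Npc1 had a larger fold change that was not called (log2 fold change 0.82 ± 0.27 (SE), adjusted p = 0.022, edgeR), and Npc2 had a log2 fold change of -0.13 (adjusted p = 0.388). Lamp2, the partner of Lamp1, had a log2 fold change of 0.045 (adjusted p = 0.695) and Scarb2 at 0.16 (adjusted p = 0.295).

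Among the cathepsins, Ctsh and Ctsl rose. Ctsh, an aminopeptidase of the lysosome (chr9:90054152-90076089, plus strand), was at 11.1, 11.4, 12.5, 12.7 and 13.7 CPM in WT and 13.0, 16.6, 17.4, 20.4 and 33.9 CPM in UCP1 KO. FGF21 KO libraries had 8.499, 10.0, 11.04, 11.7 and 13.6 CPM and dKO libraries 11.6, 13.3, 14.9, 17.5 and 19.0 CPM. The groups overlapped, since the lowest UCP1 KO library lay within the WT range (log2 fold change 0.72 ± 0.20 (SE), adjusted p = 0.0079, edgeR; exact two-sided permutation p = 0.0159). Ctsl, a cysteine endopeptidase that also processes other cathepsins (chr13:64359337-64370890, minus strand), was at 119.6, 129.7, 130.2, 143 and 144 CPM in WT and 143, 172, 175, 199 and 349.9 CPM in UCP1 KO. FGF21 KO libraries had 115, 124, 130.4, 130.4 and 149.5 CPM and dKO libraries 141, 147, 158, 158 and 164 CPM. The groups overlapped here too, and 1 UCP1 KO library stood far above the others (log2 fold change 0.64 ± 0.17 (SE), adjusted p = 0.0049, edgeR; exact two-sided permutation p = 0.0238). Without that library, UCP1 KO 5, the log2 fold change of Ctsl was 0.37 (adjusted p = 0.00396), and its call was lost without WT 1, WT 2 or WT 3 (adjusted p from 0.0119 to 0.0145). The call of Ctsh was lost without any 1 of the 5 WT libraries, UCP1 KO 2, UCP1 KO 5, FGF21 KO 3 or FGF21 KO 4 (adjusted p from 0.0101 to 0.0249), and without UCP1 KO 2 its log2 fold change was 0.45.

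Ctsa, the protective protein that stabilises a lysosomal galactosidase and sialidase, passed the edgeR test over 4 genotypes but not that of UCP1 KO against WT, which it passed with DESeq2 (log2 fold change 0.34 ± 0.10 (SE), adjusted p = 0.0112, edgeR). It was at 54.5, 57.0, 60.8, 63.3 and 68.8 CPM in WT, 53.0, 56.8, 57.3, 57.7 and 65.4 CPM in FGF21 KO, 65.6, 70.8, 72.6, 76.8 and 101 CPM in UCP1 KO and 53.0, 53.1, 58.0, 59.9 and 66.3 CPM in dKO. The highest values were in UCP1 KO. Ctsk had a log2 fold change of 0.76 (adjusted p = 0.0152), and the abundant Ctsd at 0.28 (adjusted p = 0.109) and Ctsb at -0.20 (adjusted p = 0.0915). Ctsz, at 0.046, and Tpp1, a tripeptidyl peptidase, at 0.019, were near 0 on the log2 scale.

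In the group of glycan and lipid breakdown, Lipa and Grn rose. Lipa, the acid lipase that hydrolyses cholesteryl esters and triglycerides in lysosomes (chr19:34492318-34527474, minus strand), was at 127, 156, 169, 179.8 and 187 CPM in WT and 219.8, 234, 261, 281 and 287 CPM in UCP1 KO. It was at 152, 154, 174, 175 and 193 CPM in FGF21 KO and 194, 225, 258, 324 and 354 CPM in dKO. All libraries that lacked UCP1 lay above all WT libraries (log2 fold change 0.65 ± 0.14 (SE), adjusted p = 0.00163, edgeR), and the call held without any 1 of the 20 libraries. Grn, the precursor of the lysosomal granulins (chr11:102430315-102437048, plus strand), was at 102, 114, 123, 124 and 131 CPM in WT and 132, 164, 171, 204 and 280.3 CPM in UCP1 KO. It was at 104, 106, 106, 108 and 126 CPM in FGF21 KO and 111, 113, 168, 169 and 183 CPM in dKO. UCP1 KO and WT did not overlap (log2 fold change 0.68 ± 0.17 (SE), adjusted p = 0.00383, edgeR). The call of Grn was lost without WT 1, WT 2 or UCP1 KO 5 (adjusted p from 0.0108 to 0.0128). The glycosidases were not called by edgeR, and DESeq2 called Gusb. Gusb, the lysosomal glucuronidase, had a log2 fold change of 0.36 (adjusted p = 0.0151) and Hexa, a hexosaminidase subunit, at 0.30 (adjusted p = 0.0308), while Gla, Glb1, Neu1 and the ceramidase Asah1 lay between -0.088 (Asah1) and 0.35 (Gla). Psap was not called although its values did not overlap between UCP1 KO and WT (log2 fold change 0.23, adjusted p = 0.0505).

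Neither regulator was called by edgeR or DESeq2 in any BAT comparison over the 20 libraries, whereas Tfeb was called by edgeR over 4 genotypes and for dKO against FGF21 KO in the subset of libraries with a low skeletal muscle score, described below. Tfeb was at 10.7, 12.1, 12.5, 12.8 and 13.2 CPM in WT and 11.5, 13.3, 13.4, 13.7 and 15.4 CPM in UCP1 KO. It was at 11.9, 12.4, 13.0, 13.0 and 13.1 CPM in FGF21 KO and 11.4, 13.4, 14.99, 15.1 and 17.5 CPM in dKO. The 4 groups overlapped (log2 fold change 0.14 ± 0.10 (SE), adjusted p = 0.275, edgeR). Tfe3 was at 38.9, 41.3, 44.0, 44.2 and 47.6 CPM in WT and 39.6, 41.5, 41.7, 41.8 and 45.3 CPM in UCP1 KO. It was at 39.4, 42.5, 42.5, 44.0 and 49.3 CPM in FGF21 KO and 42.0, 42.9, 45.1, 45.9 and 46.1 CPM in dKO. These groups overlapped as well (log2 fold change -0.042 ± 0.064 (SE), adjusted p = 0.632, edgeR). Both proteins are known to be controlled largely by their location in the cell, which counts of RNA do not measure.

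Of the autophagy genes, Sqstm1, Atg7 and Atg5 rose. Sqstm1 (chr11:50199366-50210827, minus strand) was at 178, 182, 202, 211 and 228 CPM in WT and 264, 372, 382, 416 and 825 CPM in UCP1 KO. It was at 210.1, 230.5, 251, 263 and 280.3 CPM in FGF21 KO and 328, 334, 349, 439.8 and 484 CPM in dKO. UCP1 KO and WT did not overlap, and UCP1 KO 5 stood far above the others (log2 fold change 1.17 ± 0.21 (SE), adjusted p = 0.000339, edgeR). Without UCP1 KO 5 the log2 fold change of Sqstm1 was 0.84 (adjusted p = 0.000196), and its call held without any 1 of the 20 libraries. Atg7, the enzyme that activates the ubiquitin-like proteins of autophagy (chr6:114643097-114860614, plus strand), was at 18.1, 21.2, 21.4, 23.2 and 23.6 CPM in WT and 26.5, 28.2, 29.1, 29.3 and 29.6 CPM in UCP1 KO. It was at 18.3, 22.9, 23.3, 25.2 and 27.2 CPM in FGF21 KO and 23.0, 24.2, 29.0, 33.0 and 34.5 CPM in dKO. UCP1 KO lay above WT without overlap (log2 fold change 0.41 ± 0.11 (SE), adjusted p = 0.00808, edgeR). Atg5, which with Atg12 forms the complex that attaches LC3 to lipid, rose least (log2 fold change 0.19 ± 0.055 (SE), adjusted p = 0.00893, edgeR), with 18.1 to 21.1 CPM in WT and 20.9 to 23.1 CPM in UCP1 KO, which overlapped. The call of Atg7 was lost when 1 of 12 libraries was left out and remained without WT 4, any 1 of the 5 dKO libraries, FGF21 KO 2 or FGF21 KO 5 (adjusted p from 0.01 to 0.0268 where lost), and that of Atg5 was also lost in 12 and remained without WT 1, UCP1 KO 2, dKO 4 or any 1 of the 5 FGF21 KO libraries (adjusted p from 0.0103 to 0.0238 where lost). The LC3 genes were not called, with a log2 fold change of -0.12 for Map1lc3a (adjusted p = 0.263) and -0.16 for Map1lc3b (adjusted p = 0.107), nor was the related Gabarapl1 at 0.33 (adjusted p = 0.317). Ulk1, the kinase that starts autophagy, had a log2 fold change of -0.23 (adjusted p = 0.0685), and Becn1 and Wipi1, which act in early membrane formation, at 0.0089 and -0.021.

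The mitophagy genes Bnip3 and Pink1 fell. Bnip3, a receptor on the outer mitochondrial membrane that is also known as a hypoxia-induced gene (chr7:138890836-138909519, minus strand), was at 233, 293, 323, 323 and 360.1 CPM in WT and 104, 115, 132, 146 and 251 CPM in UCP1 KO. It was at 230.1, 257, 267, 324 and 381 CPM in FGF21 KO and 73.8, 97.2, 114, 120.3 and 248 CPM in dKO. In both genotypes without UCP1, 4 of the 5 libraries lay below every WT library and 1 lay within the WT range (log2 fold change -1.03 ± 0.28 (SE), adjusted p = 0.00621, edgeR; exact two-sided permutation p = 0.0159). Pink1, the kinase that marks damaged mitochondria (chr4:138313409-138326307, minus strand), was at 193, 199.6, 213, 214 and 241 CPM in WT and 132, 160.5, 162, 173 and 182 CPM in UCP1 KO. It was at 200.1, 218, 219.5, 240.4 and 241 CPM in FGF21 KO and 155, 172, 202, 202 and 204 CPM in dKO. UCP1 KO lay below WT without overlap (log2 fold change -0.39 ± 0.095 (SE), adjusted p = 0.00316, edgeR). Park2, the ubiquitin ligase that acts after Pink1, had a log2 fold change of 0.23 (adjusted p = 0.104). The call of Bnip3 was lost without WT 2, WT 3, WT 4, WT 5, UCP1 KO 2, UCP1 KO 3, UCP1 KO 4 or UCP1 KO 5 (adjusted p from 0.0106 to 0.0185), and that of Pink1 without WT 2 (adjusted p = 0.0142).

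**Figure D4:**
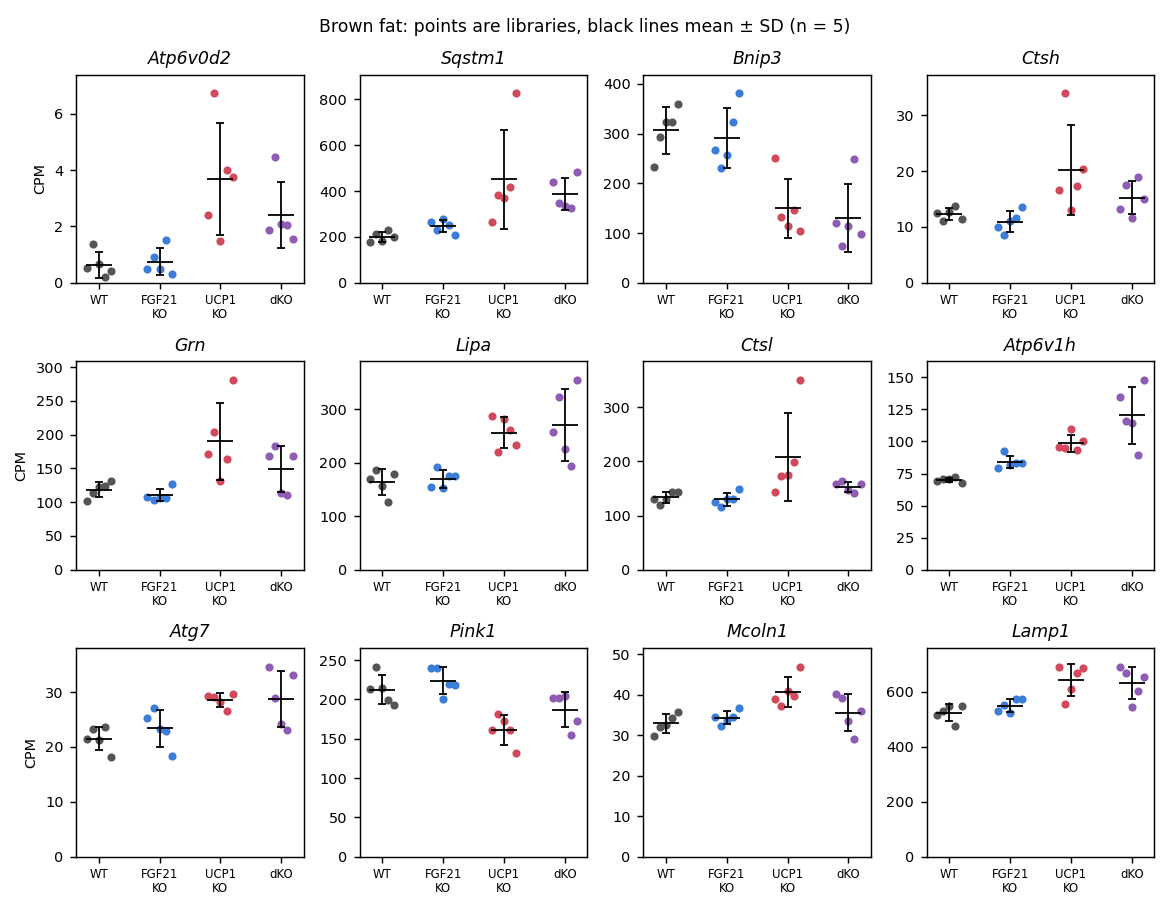
CPM in each BAT library (points) of the 12 called genes with the largest change in UCP1 KO against WT, 1 panel per gene, by genotype, with the mean of 5 libraries as a line and bars of 1 SD. Atp6v0d2, Sqstm1 and Lipa lie higher in UCP1 KO than in WT without overlap, and Bnip3 and Pink1 lie lower, with 1 UCP1 KO library of Bnip3 (251 CPM) inside the WT range.

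Macrophage genes moved with these changes. In bulk tissue, more cells of a type and more RNA per cell cannot be told apart. Of 13 macrophage genes tested, 11 rose in BAT of UCP1 KO against WT (median log2 fold change over the 13, 1.37), among them Mmp12 (2.48), Gpnmb (2.36) and Trem2 (2.28), which were chosen as examples after their values were seen. None of the 13 was at 0 in any BAT library, and their summed level was 183 to 225 CPM in WT, 177 to 297 CPM in FGF21 KO, 264 to 715 CPM in UCP1 KO and 256 to 451 CPM in dKO. With the macrophage score (mean log2 of CPM plus 0.1 over the list) as a covariate, 0 of the 41 genes were called for UCP1 KO against WT, against 2.07% of all genes. The log2 fold changes then were 0.57 for Atp6v0d2 (adjusted p = 0.58), 0.74 for Sqstm1 (adjusted p = 0.237), 0.29 for Ctsl (adjusted p = 0.598) and 0.13 for Grn (adjusted p = 0.814), and that of Ctsh was -0.26 (adjusted p = 0.515). For 7 other called genes the value with the covariate was near that without it while the SE was larger, with 0.70 ± 0.23 for Lipa (adjusted p = 0.0787), 0.59 ± 0.16 for Atp6v1h (adjusted p = 0.0294), 0.29 ± 0.13 for Lamp1 (adjusted p = 0.191), 0.28 ± 0.14 for Mcoln1 (adjusted p = 0.247), 0.38 ± 0.19 for Atg7 (adjusted p = 0.246), 0.25 ± 0.092 for Atg5 (adjusted p = 0.103) and -0.40 ± 0.16 for Pink1 (adjusted p = 0.14), and Bnip3 was at -0.70 ± 0.47 (adjusted p = 0.404). The score did not overlap between WT (2.91 to 3.39) and UCP1 KO (3.67 to 5.20), so the genotype and the score cannot be told apart in these libraries.

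Skeletal muscle genes were also higher, with 6 of 10 called and a median log2 fold change of 4.82. The skeletal muscle score was 1.40 to 3.49 in WT, 1.52 to 5.25 in FGF21 KO, 2.51 to 9.68 in UCP1 KO and 2.99 to 8.73 in dKO. With that score as a covariate, 12 of the 41 genes were called for UCP1 KO against WT, against 21.0% of all genes. All were among the 13, of which Ctsh was lost (log2 fold change 0.57, adjusted p = 0.045, edgeR). The comparison was also limited to the 15 libraries with a score at or under 6 (5 WT, 5 FGF21 KO, 3 UCP1 KO and 2 dKO). This limit was chosen after the data were seen. Of the 41 genes, those called were then 10 of the 13 and in addition Ctsa, Ctsk and Npc1, against 23.3% of all genes. Over 4 genotypes 18 of the 41 were called in these libraries, against 28.4% of all genes. Lost were Atg5 (log2 fold change 0.22, adjusted p = 0.019), Atg7 (0.41, adjusted p = 0.0111) and Bnip3 (-0.88, adjusted p = 0.0115). Of 7 lymph node genes tested, 0 were called by edgeR in BAT of UCP1 KO against WT and 2 had an unadjusted p under 0.05. The adipocyte gene Adipoq fell in this comparison (log2 fold change -1.15, adjusted p = 5.97e-05, edgeR).

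When FGF21 was absent from both genotypes, fewer of the 41 genes were called for the loss of UCP1. In BAT of dKO against FGF21 KO, Atp6v1h (log2 fold change 0.52 ± 0.095 (SE), adjusted p = 0.000679, edgeR) and Lipa (log2 fold change 0.67 ± 0.14 (SE), adjusted p = 0.00223) rose and Bnip3 fell (log2 fold change -1.16 ± 0.28 (SE), adjusted p = 0.00503). These 3 genes were 7.32% of the 41, against 13.5% of all genes, of which 6.74% rose and 6.80% fell, and DESeq2 called the same 3 with Atp6v0d2 and Map1lc3b, against 19.5% of all genes. At an unadjusted p under 0.05 were 21 of the 41, against 40.0% of all genes. Their libraries are those given above, and dKO lay above FGF21 KO without overlap for Lipa but not for Atp6v1h. All 5 dKO libraries lay above all 5 FGF21 KO libraries in 5 of the 41 genes (Ctsk, Lipa, Atp6v0d2, Sqstm1 and Wipi1), against 8.84% of all genes, and below them in 2 (Npc2 and Ctsb), against 9.80%. Short of edgeR's threshold were Map1lc3b (log2 fold change -0.28, adjusted p = 0.0148), Atp6v0d2 (1.70, adjusted p = 0.0157) and Sqstm1 (0.65, adjusted p = 0.0287). The median over the 41 genes was 0.09. The calls of Atp6v1h and Lipa held without any 1 library, and that of Bnip3 was lost without dKO 1, dKO 2, dKO 3, dKO 5, FGF21 KO 4 or FGF21 KO 5 (adjusted p from 0.0125 to 0.0156). Without dKO 4, which had the lowest value among the dKO libraries for 9 of the genes given in full and a skeletal muscle score of 8.63, 5 genes were called, against 14.7% of all genes. Of the macrophage genes, 4 of 13 rose in this comparison, and with their score as a covariate only Atp6v1h was called (log2 fold change 0.57, adjusted p = 0.00394), against 4.68% of all genes. Lipa then had a log2 fold change of 0.71 ± 0.18 (adjusted p = 0.0162) and Bnip3 of -0.98 ± 0.33 (adjusted p = 0.0582). In a separate fit with the skeletal muscle score in place of the macrophage score, Atp6v1h and Lipa were called, against 8.00% of all genes, and Bnip3 was not (-1.36 ± 0.35, adjusted p = 0.0118). With the libraries of low skeletal muscle score alone, 6 of the 41 genes were called (Atp6v1h, Bnip3, Ctsd, Grn, Lipa and Tfeb), against 13.0% of all genes. Of 7 lymph node genes, 1 was called (Cd3e, 1.61) and 5 had an unadjusted p under 0.05, with a median log2 fold change of 1.41 and a summed level of 1.96 to 3.77 CPM in FGF21 KO and 2.29 to 12.5 CPM in dKO. Adipoq fell here too (log2 fold change -1.01, adjusted p = 0.00038, edgeR). The part of these genes in the results was not tested.

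A smaller number of calls without FGF21 does not show that the effect of UCP1 loss differed. The difference between both effects, tested as an interaction, gave 0 calls among the 41 with edgeR and with DESeq2, and 4 of the 41 had an unadjusted p under 0.05, against 0% of all genes called and 5.37% with an unadjusted p under 0.05. Between UCP1 KO and dKO, edgeR and DESeq2 called 0 of the 41 genes, and 10 had an unadjusted p under 0.05 (smallest adjusted p 0.12, of Ctsa), against 0.0636% of all genes called and 12.9% with an unadjusted p under 0.05. With the libraries of low skeletal muscle score alone, Ctsd and Npc1 were called for UCP1 KO against dKO, 1 in each direction, against 1.29% of all genes. FGF21 KO and WT gave 0 calls among the 41 with edgeR and with DESeq2, and 1 had an unadjusted p under 0.05 (Atp6v1h), against 0% of all genes called and 8.55% with an unadjusted p under 0.05. In the libraries of low skeletal muscle score, edgeR called 0 of the 41 for the interaction, with 7 at an unadjusted p under 0.05 (smallest adjusted p 0.0807), against 15.5% of all genes at that level. For FGF21 KO against WT it also called 0 there, with 2 at an unadjusted p under 0.05. No share over all genes is given beside that count, nor the share of all genes called in either comparison.

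Other genes of the same pathways gave mixed directions in BAT of UCP1 KO against WT, where 13.8% of all genes rose, 11.4% fell and 48.9% had an unadjusted p under 0.05. Of 17 further V-ATPase genes tested, 2 rose (Atp6v1g1, 0.45, and Atp6v1e1, 0.34) and 0 fell, with a median log2 fold change of 0.14. Of 40 further lysosomal genes, 8 rose and 7 fell, with a median of -0.02. The steepest rises among them were those of Cd63, a membrane protein of late endosomes (1.02), of the sulfatase Galns (0.91) and of the dipeptidyl peptidase Ctsc (0.83), and the steepest falls those of the sulfatase Ids (-0.65), the phospholipase Pla2g15 (-0.64) and the cysteine protease Ctso (-0.53). Of 35 further autophagy genes, 3 rose (Vmp1, 0.83, Epg5, 0.47, and Uvrag, 0.45) and 9 fell, Atg9b (-0.84), Calcoco1 (-0.59) and Atg2a (-0.49) most, with a median of -0.10. Of 7 further mitophagy genes, 0 were called by edgeR and 2 had an unadjusted p under 0.05. Of 19 genes that connect nutrient sensing to the lysosome, 2 rose, which were Tfec, a relative of Tfeb (2.21), and the small GTPase Rragd (1.71), and 4 fell, among them Rragb (-2.04), the transcription factor Foxo1 (-0.91) and Lamtor2 (-0.35).

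In iWAT, Ctsz was the sole gene of the 41 to pass the test. Ucp1 was counted more there in UCP1 KO than in WT, and UCP1 KO stands for the libraries so labelled. The lysosomal carboxypeptidase cathepsin Z (chr2:174427493-174439039, minus strand) was at 155, 168, 189, 199.9 and 211 CPM in WT and 256, 269.7, 273, 306 and 314 CPM in the libraries labelled UCP1 KO. It was at 151, 189, 222, 223 and 228 CPM in FGF21 KO and 200.4, 206, 210, 211 and 219.6 CPM in dKO. Libraries labelled UCP1 KO lay above every library of the other 3 genotypes (log2 fold change 0.62 ± 0.11 (SE), adjusted p = 0.00669, edgeR; exact two-sided permutation p = 0.00794). This 1 gene was 2.44% of the 41, against 0.610% of all genes called, and DESeq2 also called 1, against 3.49%. For UCP1 KO against dKO, edgeR called 0 of the 41, with 4 at an unadjusted p under 0.05, against 0.466% of all genes called and 14.2% at an unadjusted p under 0.05. Ctsz had the smallest adjusted p there (log2 fold change 0.44 ± 0.11 (SE), adjusted p = 0.0484), and DESeq2 called it, against 3.13% of all genes. Over 4 genotypes, Ctsz was called by edgeR, against 1.74% of all genes, and Ctsz and Mcoln1 by DESeq2, against 7.39%. The call of Ctsz for UCP1 KO against WT was lost without any 1 of the 5 WT libraries, UCP1 KO 3, UCP1 KO 4, UCP1 KO 5 or dKO 2 (adjusted p from 0.01 to 0.0304), and without UCP1 KO 2 both Ctsz and Npc1 were called. In BAT, Ctsz was not called (log2 fold change 0.046, adjusted p = 0.878). The macrophage list gave 0 of 13 genes called in iWAT by edgeR and 3 at an unadjusted p under 0.05, with a summed level of 1676 to 2886 CPM in WT and 1298 to 3355 CPM in UCP1 KO. With the macrophage score as a covariate Ctsz had a log2 fold change of 0.55 ± 0.088 (adjusted p = 0.00621, edgeR) and was again the 1 member called, against 0.276% of all genes. Brown adipocyte genes also moved in this comparison. Of the 3 on that list, Cidea (log2 fold change 4.90) and Cox7a1 (3.56) rose, Ucp1 was at 5.65 (adjusted p = 0.0195), and none was at 0 in any iWAT library. Their summed level was 18.2 to 72.5 CPM in WT, 4.03 to 61.5 CPM in FGF21 KO, 321 to 2143 CPM in the libraries labelled UCP1 KO and 17.2 to 113 CPM in dKO, and its part in the rise of Ctsz was not tested. The skeletal muscle score exceeded 6 in 2 WT, 1 FGF21 KO and 1 UCP1 KO libraries of iWAT. In the other 16, a choice made after the data were seen, edgeR called 0 of the 41 for UCP1 KO against WT, with 6 at an unadjusted p under 0.05, against 0.239% of all genes called, and Ctsz had a log2 fold change of 0.72 ± 0.15 (adjusted p = 0.0256). In a fit of all 20 libraries with that score, Ctsz was called for UCP1 KO against WT (0.62, adjusted p = 0.00813, edgeR). Over 4 genotypes that fit called 0 of the 41, with 11 at an unadjusted p under 0.05 (smallest adjusted p 0.013). The shares over all genes in this fit are not given here, so these counts are no result about the members.

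The other iWAT comparisons called none of the 41 genes by edgeR or DESeq2. For dKO against FGF21 KO, 1 of the 41 had an unadjusted p under 0.05 (smallest adjusted p 0.542), against 0.0115% of all genes called and 8.62% at an unadjusted p under 0.05. For FGF21 KO against WT, 8 had an unadjusted p under 0.05 (smallest adjusted p 0.225, of Atp6v0d2), against 0.00575% of all genes called and 17.4% at an unadjusted p under 0.05. For the interaction, 4 had an unadjusted p under 0.05 (smallest adjusted p 0.246, of Ctsz), against 0% of all genes called and 9.98% at an unadjusted p under 0.05. In the 11 libraries of low lymph node score, FGF21 KO had 1 library. These 3 comparisons all use FGF21 KO, and their spread would come from the other genotypes, so no calls are counted for them there. For UCP1 KO against dKO in these 11 libraries, Ctsz had a log2 fold change of 0.42 ± 0.10 (SE) and was not called. In the 16 libraries of low skeletal muscle score, edgeR called 0 of the 41 in these 4 comparisons. At an unadjusted p under 0.05 were 0 for dKO against FGF21 KO, 6 for FGF21 KO against WT, 3 for the interaction and 4 for UCP1 KO against dKO. The shares over all genes in this subset are not given here, so these counts are no result about the members.

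Much of the spread of these genes in iWAT ran with the lymph node score. The score was 6.43 to 7.37 in 9 libraries (2 WT, 4 FGF21 KO, 1 UCP1 KO and 2 dKO) and -0.47 to 1.67 in the other 11. In 15 of the 41 genes the 9 libraries lay below all 11 others, against 9.81% of all genes, and in 0 they lay above, against 19.3%. These 15 were Lamp1, Lamp2, Npc2, Ctsb, Ctsl, Tpp1, Atp6v0d1, Atp6v1h, Sqstm1, Map1lc3a, Gabarapl1, Atg7, Wipi1, Pink1 and Park2. Lamp1, for example, was at 510.2 to 621 CPM in the 9 libraries and at 708 to 958 CPM in the 11, and Sqstm1 at 201 to 267 CPM against 293 to 445 CPM. These groups were set by the score and not by a label, so the values are a description. Ctsz overlapped between both, at 189 to 256 CPM against 151 to 314 CPM.

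Tfeb ran the other way. It was at 10.8, 11.2, 11.3, 20.4 and 21.9 CPM in WT, 10.1, 18.3, 19.1, 19.4 and 21.1 CPM in FGF21 KO, 10.4, 13.7, 14.1, 19.4 and 19.7 CPM in UCP1 KO and 11.9, 12.5, 13.2, 23.8 and 24.2 CPM in dKO. By score, it was at 18.3 to 24.2 CPM in the 9 high-scoring libraries and at 10.1 to 19.4 CPM in the other 11, with overlap, while the genotypes overlapped throughout (log2 fold change 0.030 ± 0.28 (SE), adjusted p = 0.979 for UCP1 KO against WT, edgeR). Tfe3 was at 46.1, 50.1, 50.9, 54.6 and 54.8 CPM in WT, 45.3, 46.7, 48.8, 51.3 and 55.5 CPM in FGF21 KO, 45.4, 51.3, 56.6, 58.9 and 60.4 CPM in UCP1 KO and 46.9, 53.2, 57.2, 60.0 and 63.3 CPM in dKO, and these groups overlapped too (log2 fold change 0.088 ± 0.095 (SE), adjusted p = 0.794, edgeR).

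With the 11 libraries of low lymph node score alone (3 WT, 1 FGF21 KO, 4 UCP1 KO and 3 dKO), 2 of the 41 genes were called for UCP1 KO against WT, against 4.10% of all genes. These were Ctsz, with a log2 fold change of 0.72 ± 0.10 (adjusted p = 0.00293, edgeR), and Atp6v0d2, with 2.63 ± 0.38 (adjusted p = 0.00332). Over all 20 libraries Atp6v0d2 had a log2 fold change of 2.13 with an adjusted p of 0.131, from 1.25, 1.54, 2.05, 2.34 and 4.48 CPM in WT and 1.63, 7.64, 11.7, 13.1 and 17.1 CPM in UCP1 KO. FGF21 KO libraries had 2.396, 3.03, 10.3, 23.0 and 29.6 CPM and dKO libraries 4.59, 5.90, 9.33, 16.2 and 24.9 CPM of it. In all 4 genotypes its values differed several-fold between libraries. Of the further lysosomal, V-ATPase, autophagy, mitophagy and nutrient-sensing genes, Mtor, the kinase that represses autophagy when nutrients are plentiful, was the only one called in iWAT of UCP1 KO against WT over all libraries (log2 fold change 0.97 ± 0.17 (SE), adjusted p = 0.00527, edgeR).

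**Figure D5:**
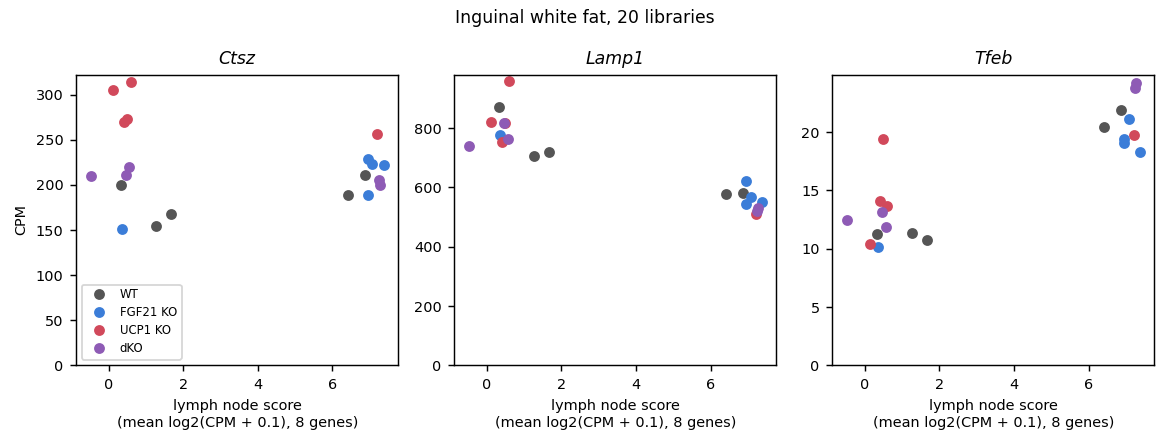
CPM of Ctsz, Lamp1 and Tfeb in the 20 iWAT libraries (points, by genotype) against the lymph node score, the mean log2 of CPM plus 0.1 over 8 genes. Lamp1 is lower in the 9 libraries at 6.43 to 7.37 than in the 11 at -0.47 to 1.67 without overlap, Tfeb tends to be higher there, and Ctsz is highest in the UCP1 KO libraries at both ends.

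In liver and muscle, no gene of the 41 was called. In liver, edgeR and DESeq2 called 0 over 4 genotypes, with 9 of the 41 at an unadjusted p under 0.05, against 0.340% of all genes called and 11.6% at an unadjusted p under 0.05. For UCP1 KO against WT in liver they also called 0, with 8 at an unadjusted p under 0.05 (smallest adjusted p 0.133, of Tfe3), against 0.0694% of all genes called and 10.2% at an unadjusted p under 0.05. The fold changes in liver were mostly positive, in 33 of 41 genes, against 49.9% of all genes, with a median of 0.11. The 5 UCP1 KO libraries lay above the 5 WT libraries in 3 genes, against 1.39% of all genes. Those were Lamp1, at 590.2 to 642 CPM in WT and 658 to 722 CPM in UCP1 KO (0.14, adjusted p = 0.345), Mcoln1, at 30.6 to 31.9 and 32.6 to 35.1 CPM (0.093, adjusted p = 0.623), and Ctsz, at 137 to 177 and 178 to 214 CPM (0.27, adjusted p = 0.159). Tfe3 in liver was at 21.0, 21.1, 22.0, 22.1 and 22.2 CPM in WT and 22.1, 25.2, 25.9, 26.5 and 27.2 CPM in UCP1 KO (log2 fold change 0.23 ± 0.064 (SE), adjusted p = 0.133, edgeR), and Tfeb at 4.21, 4.47, 5.53, 5.63 and 5.87 CPM and 3.80, 3.84, 4.25, 4.57 and 5.32 CPM (log2 fold change -0.24 ± 0.13 (SE), adjusted p = 0.544). Both overlapped between the genotypes.

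In muscle, edgeR and DESeq2 called 0 of the 41 over 4 genotypes, with 3 at an unadjusted p under 0.05, against 0.0860% of all genes called and 16.3% at an unadjusted p under 0.05. For UCP1 KO against WT they called 0, again with 3 at an unadjusted p under 0.05 (smallest adjusted p 0.171, of Bnip3), against 0.0265% of all genes called and 9.81% at an unadjusted p under 0.05. The median log2 fold change over the 41 genes was -0.02. Bnip3 in muscle was at 235, 246, 251, 255 and 274 CPM in WT and 203, 205, 206, 208 and 243 CPM in UCP1 KO (log2 fold change -0.24 ± 0.059 (SE), adjusted p = 0.171, edgeR). Tfeb was at 36.1 to 47.6 CPM in WT and 31.5 to 51.8 CPM in UCP1 KO (log2 fold change 0.070 ± 0.15 (SE), adjusted p = 0.91), and Tfe3 at 9.77 to 11.6 and 9.22 to 12.7 CPM (log2 fold change -0.016 ± 0.073 (SE), adjusted p = 0.965). All 3 genes overlapped between the genotypes.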

How the data were processed

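The authors aligned the reads of stranded poly(A) libraries with STAR to mm10 (GRCm38), counted them with HTSeq over UCSC known genes, and deposited raw counts per gene symbol. Whether HTSeq counted by strand is not given in the sources used here, so how reads in overlapping genes were counted is not known. Reads shared between related genes such as Map1lc3a and Map1lc3b were not examined. One entry that names no gene held at most 3.42e-05% of a library and was left out. None of the 760 pairs of libraries within a tissue had identical counts.

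The members and gene lists were chosen with earlier results of these data known. Per tissue, genes that exceeded 15 counts in a library and 75 in all, with at most 10 libraries at 0, were fitted with edgeR 4.0.16 (R 4.3.3, limma 3.58.1; TMM factors, quasi-likelihood test, 1 mean per genotype). An adjusted p under 0.01 was called, as in the study, which used DESeq2 (here 1.42.0). Log2 CPM used a prior count of 2, and marker scores the mean log2 of CPM plus 0.1. Length is that of the GENCODE principal transcript. Named in full were members called in BAT or iWAT, up to the 12 with the largest change, members called in liver or muscle, and Tfeb and Tfe3. Up to 3 rises and 3 falls per further list were named. Atg5, and members just outside the threshold, were named after their values were seen. Alternatives were DESeq2, RLE factors, no filter, an adjusted p under 0.05, marker scores as covariates, libraries of low lymph node or (added after seeing the data) low skeletal muscle score, and each library left out. The code was tested on simulated data. Group and tissue came from the labels.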

Additional observations from a re-analysis of the deposited data

Results flagged for a closer look

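Of 72 groups of 5 libraries examined for the genes given in full, 8 held a library whose gap to its nearest neighbour exceeded Dixon's critical value of 0.71 of the group's range, and chance alone does so in about 1 in 20 groups. In BAT of UCP1 KO, replicate 5 stood highest for Sqstm1 at 825 CPM (next 416) and for Ctsl at 350 CPM (349.9, next 199). The same library was highest of its group for Atg5, Atg7, Grn and Mcoln1, with a macrophage score of 4.67 and a skeletal muscle score of 2.51. Bnip3 had a high library in both genotypes without UCP1, replicate 1 of UCP1 KO at 251 CPM (next 146) and replicate 4 of dKO at 248 CPM (next 120.3). Atp6v0d2 stood highest in replicate 2 of dKO at 4.47 CPM (next 2.08), the dKO library with the highest macrophage score, 4.38. In FGF21 KO, Atp6v1h stood highest in replicate 2 at 92.5 CPM (next 82.9) and Grn in replicate 5 at 126 CPM (next 108). In iWAT of FGF21 KO, Tfeb stood lowest in replicate 2 at 10.1 CPM (next 18.3), the only FGF21 KO library with a low lymph node score. What set these libraries apart was not tested.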

How the results depend on the processing

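No paired analysis was possible because the labels carry no replicate numbers and none links libraries of a mouse. In BAT of UCP1 KO against WT, 13 genes were called, 0 with the macrophage score as a covariate (there Ctsh turned to -0.26), and 4 to 15 with 1 library left out (4 without WT 2, 6 without UCP1 KO 5, 7 without WT 1 or WT 3). Over 4 genotypes in BAT, 12 were called, against 29.7% of all genes. There were 21 at an adjusted p under 0.05, 1 with the macrophage covariate and 8 to 15 with 1 library left out. No share of all genes is given for these settings. For dKO against FGF21 KO in BAT, 3 were called, against 13.5% of all genes, and 5 with DESeq2, against 19.5%. At an adjusted p under 0.05 there were 9, with no share of all genes given. With the macrophage covariate 1 was called, against 4.68%. In libraries of low skeletal muscle score (chosen after seeing the data) 6 were called, against 13.0%. With 1 library left out, 2 to 5 were called (5 without dKO 4, against 14.7%, 2 without dKO 1, dKO 2, dKO 3, dKO 5 or FGF21 KO 5). For UCP1 KO against dKO in BAT, 0 were called, against 0.0636% of all genes, and 2 in libraries of low skeletal muscle score, against 1.29%. In iWAT over 4 genotypes, 1 was called and 2 with DESeq2. There were 0 with RLE factors, without a filter, with the skeletal muscle covariate or in libraries of low skeletal muscle score. With 1 library left out, 0 to 2 were called. For UCP1 KO against WT in iWAT, 1 was called, 0 without a filter or in libraries of low skeletal muscle score, 2 in libraries of low lymph node score, and 0 to 2 with 1 library left out. For UCP1 KO against dKO in iWAT, 0 were called, 1 with DESeq2 or at an adjusted p under 0.05, and 0 to 1 with 1 library left out (1, Npc1, without UCP1 KO 2). Apart from the covariates and subsets, which change what is compared, the cause was not tested. Atp6v0d2 had few counts, 6 to 39 in WT BAT and 1 to 25 in muscle.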

Other observations

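In BAT of dKO against FGF21 KO, 6.74% of all genes rose, 6.80% fell and 40.0% had an unadjusted p under 0.05, and the counts in the further gene lists are given here beside these shares. Of 40 further lysosomal genes, 1 rose (Dnase2a, 0.70, a nuclease of the lysosome) and 7 fell (Pla2g15, Ctso, Ids, Acp2, Smpd1, Ctns and Laptm4a), with a median log2 fold change of -0.11. Of 35 further autophagy genes, 1 rose (Atg13) and 5 fell (Calcoco1, Atg3, Pik3c3, Gabarap and Pik3r4), with a median of -0.08. Of 19 nutrient-sensing genes, 0 rose and 3 fell (Rragb, Foxo1 and Lamtor5), and of 17 further V-ATPase genes 0 were called by edgeR and 7 had an unadjusted p under 0.05. Dnase2a and the other genes in this paragraph were named after their values were seen.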
